A study of Homo sapiens with 16 samples.

Results

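Depletion of GATA6 at day 3 of definitive endoderm differentiation was measured on 4 of the 16 arrays of the study, namely both day 3 arrays of cells carrying a short hairpin RNA (shRNA) against GATA6 and both day 3 arrays of cells carrying the Empty Vector. The arrays were chosen by their labels alone. All cells were H1 human embryonic stem cells, an established pluripotent line, and RNA was hybridised to Affymetrix PrimeView arrays. Every day 3 sample had received 50 ng/ml activin A, 10 ng/ml BMP4 and 20 ng/ml FGF2 over the first 2 days and activin A alone on the last, and none had received doxycycline.

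The GATA6-depleted cells held the hairpin in a lentiviral vector and were a polyclonal line. The control cells held the same kind of vector without a hairpin, so no arm with an unrelated hairpin was present. Later groups used for comparison below were depleted and control cells at days 4 and 5, control cells at day 0, and rescue cells at day 5. The rescue cells were made from GATA6-depleted cells, so they carried the same hairpin. In addition they held a GATA6 cDNA under doxycycline control, and were treated for 96 h at 60 ng/ml per the labels. Each group had 2 arrays, which the study describes as independent differentiations. No depleted array of day 0 and no rescue array of day 3 was analysed here, so at day 3 a difference between the 2 cell lines that preceded differentiation cannot be told apart from an effect of GATA6.

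GATA6 is a zinc finger transcription factor that binds the sequence GATA and is switched on as pluripotent cells leave through a primitive streak-like state towards endoderm. Nodal signals, which activin A mimics, drive this step together with WNT and BMP signals. SOX17, FOXA2, EOMES, GSC, HHEX and GATA4 are regulators of the resulting definitive endoderm, and CXCR4 is the receptor commonly used to sort it.

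Values are log2 levels by robust multi-array average (RMA), and differences are log2 values of depleted minus control, with their standard error (SE), from 2 arrays per group. A gene was called when the adjusted p of limma, over all 18132 genes, was under 0.05. Levels below about 3.5 log2, the lower quartile of an array, are close to background, so folds are given only where both groups lay above it. The pooled cells of a culture were measured, and fewer cells of a type and less RNA per cell cannot be told apart.

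On the arrays GATA6 mRNA was still abundant at day 3 in cells with the hairpin. Its level was 9.76 and 9.90 in depleted cells, against 11.44 and 11.60 in control cells, and 1.79 on average in control cells at day 0. The groups did not overlap and each was tight. This was a 3.22-fold lower mRNA level (−1.69 ± 0.285, adjusted p = 0.00566), a call that ended without depleted replicate 1 (−1.62, adjusted p = 0.055) or without control replicate 2 (−1.60, adjusted p = 0.0501). By the 1 probe set of GATA6, the day 3 arrays therefore compare less GATA6 mRNA with more, and not absence with presence. GATA6 protein was not measured here, so this reading does not extend to it. Whether the probe set reads only intact mRNA was not tested. The study reports GATA6 mRNA barely above background by quantitative PCR in hairpin cells on an earlier day. It also reports no detectable GATA6 protein in these cells on the last day. On the arrays the decrease in GATA6 mRNA was −5.03 ± 0.285 at day 5, which was larger than at day 3 (−3.35 ± 0.403, adjusted p = 0.000142).

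The 4 day 3 arrays carried the markers of their label, though not those alone. All 8 definitive endoderm markers tested and both primitive streak markers lay above the lower quartile on all 4 arrays. So did all 5 pluripotent cell markers and all 5 mesoderm markers, so this level does not single out endoderm. Of the neuroectoderm markers SOX1 and ZIC1 lay at or below the lower quartile on at least 1 array, as did TAL1, CDH5 and PTPRC for blood and endothelium. COL3A1 and DCN for fibroblasts and AFP for extraembryonic endoderm did so too. The remaining markers lay above it, 1 of 3 for neuroectoderm and 1 of 4 for blood and endothelium. For fibroblasts they were 3 of 5 and for extraembryonic endoderm 3 of 4. Control replicate 2 stood somewhat apart. Over all genes its difference from control replicate 1 had an SD of 0.3372 log2, with 258 genes at least 1 log2 apart, against 0.2475 and 54 genes between both depleted arrays. The gap between 3′ and 5′ probes of ACTB, which widens as RNA degrades, was 1.46 and 1.396 log2 in depleted cells, against 1.364 and 2.193 in control cells. Of the 77 named genes called at day 3, 32 lost their call without control replicate 2. These were GATA6, PCDH8, DKK1, LUM, APOA2, SEMA3D, HHEX, LEFTY1, TWIST1, FZD5, APCDD1, ID3, ERBB3, ZFPM2, PCDH7, PCDH19, PCDH17, ZEB1, COL6A3, COL4A1, LAMA1, SLIT2, TENM2, NES, APOC1, SOX7, ZMAT3, BST2, BHLHE22, UPK1B, MET and SCGB3A2.

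Across all genes, 680 were called at day 3. The 325 higher in depleted cells made up 1.79% of those tested and the 355 lower 1.96%. The counts of list members below stand beside these shares, and the lists were chosen with earlier results of these data known. At later days the depleted cells differed in far more genes, with 14.8% called higher and 13.3% lower at day 4, and 16.5% higher and 16% lower at day 5. Most day 3 differences were modest. The median size was 0.90 log2 among rises and 0.89 among falls, and 24 rises and 18 falls reached 2 log2. All 680 kept their direction without any 1 of the 4 arrays, and 90 rises and 74 falls kept their call as well. The count fell to 254 without depleted replicate 1, 326 without depleted replicate 2 and 327 without control replicate 2, and was 943 without control replicate 1. A model of the 4 day 3 arrays alone, whose spread rests on 2 pairs of arrays, called 161. The part that the wider spread between the control arrays had in this drop was not tested. In no called gene did the 2 groups overlap, so leaving out 1 array could not turn its direction. Such a lack of overlap was found without regard to calls in 20.7% of all genes upwards and 23.5% downwards.

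The largest rise was in RELN, an extracellular matrix protein that guides migrating neurons. Its level was 8.80 and 9.01 in depleted cells, against 4.77 and 4.89 in control cells. The groups lay far apart, by 16.8-fold (4.07 ± 0.233, adjusted p = 1.52e-06). The integrin subunit ITGA8, a receptor for matrix proteins, was at 7.11 and 6.91 in depleted cells and at 4.12 and 3.89 in control cells (3.00 ± 0.396, adjusted p = 0.0011). COL6A3, a chain of type VI collagen, rose as well (1.16 ± 0.229).

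Several secreted regulators of WNT signalling rose together. DKK1, which blocks the WNT co-receptor LRP6, was at 11.35 and 11.11 in depleted cells, against 8.59 and 8.64 in control cells. The rise was 6.14-fold (2.62 ± 0.536, adjusted p = 0.017), but the call ended without any 1 of the 4 arrays at sizes of 2.50 to 2.74. DKK4 had a similar difference with a wider spread, at 10.80 and 10.02 in depleted cells against 8.31 and 7.44 in control cells, and was not called (2.53 ± 0.73, adjusted p = 0.0803). Of 20 measured WNT antagonists 4 rose and none fell, against 1.79% higher and 1.96% lower of all genes. The other 3 were SOSTDC1 (1.88 ± 0.257), DKK3 (1.60 ± 0.253) and APCDD1 (0.92 ± 0.232), and SOSTDC1 and DKK3 kept their calls without any 1 array. The median of the list was 0.08, against −0.01 over all genes, so most of its members did not move with these 4.

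RSPO3, a secreted amplifier of WNT signals, was also higher. Its level was 6.52 and 6.0 in depleted cells, against 3.52 and 2.98 in control cells, the lower of which was at background (3.01 ± 0.335, adjusted p = 0.000332). Of 25 WNT agonists and receptors it was the 1 that rose, and FZD5, a WNT receptor, was the 1 that fell (−1.08 ± 0.275). FZD5 lost its call without control replicate 2 or either depleted array. Among 12 direct WNT target genes 1 was called, the homeobox gene MSX1, at 7.27 and 6.89 in depleted cells against 5.88 and 5.75 in control cells (1.27 ± 0.188, adjusted p = 0.00258).

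MSX1 is also a BMP response gene. With ID3, an inhibitor of helix-loop-helix factors, it made up the 2 of 12 BMP response factors that rose, against 1.79% of all genes. ID3 was at 11.19 and 10.98 in depleted cells, against 9.95 and 9.45 in control cells (1.38 ± 0.261). The median of this list was 0.49, and none of its members fell. Among 19 BMP ligands and antagonists the BMP antagonist NOG fell, to 5.34 and 5.74 in depleted cells against 7.23 and 7.32 in control cells (−1.74 ± 0.228, adjusted p = 0.0011). The ligand BMP7 fell as well (−1.18 ± 0.16, adjusted p = 0.00136). NOG and BMP7 kept their calls without any 1 array, whereas ID3 lost its call without depleted replicate 1 or control replicate 2.

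In the Nodal and activin pathway 1 of 19 genes rose and 2 fell. INHBB, the beta B chain of activins and inhibins, was at 4.92 and 5.09 in depleted cells, against 2.42 and 2.60 in control cells, which is background (2.49 ± 0.205, adjusted p = 2.85e-05). LEFTY1, an antagonist that Nodal signalling induces, fell by 1.53 ± 0.312 (adjusted p = 0.0164), a call that ended without any 1 of the 4 arrays. GDF3, a ligand of the same family, was at 6.90 and 6.92 in depleted cells, against 8.05 and 8.26 in control cells (−1.24 ± 0.176, adjusted p = 0.00189). No gene of 21 in the FGF pathway was called, and the largest difference there was FGF19 (−0.90 ± 0.254, adjusted p = 0.0729).

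**Figure D1:**
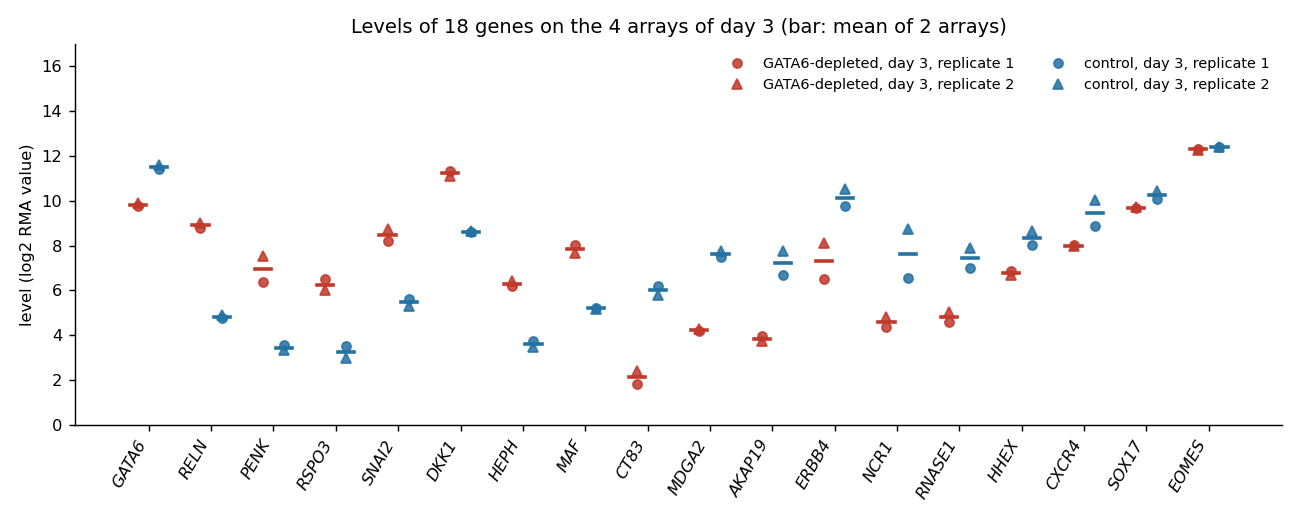
Levels on the 4 day 3 arrays, as log2 RMA values, for 18 genes. Red marks are GATA6-depleted cells, blue marks control cells, circles replicate 1, triangles replicate 2 and bars the mean of 2 arrays. RELN, PENK and SNAI2 lie higher in depleted cells and CT83, MDGA2 and AKAP19 lower, while EOMES differs by −0.10.

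SNAI2, TWIST1 and ZEB1, factors of the epithelial to mesenchymal transition, were called higher. SNAI2, a repressor of epithelial genes, was at 8.19 and 8.76 in depleted cells, against 5.63 and 5.32 in control cells (7.97-fold, 3.00 ± 0.386, adjusted p = 0.000993). TWIST1, a helix-loop-helix factor of mesenchyme, was at 7.29 and 7.16 in depleted cells, against 5.52 and 4.29 in control cells (2.32 ± 0.494, adjusted p = 0.0207). With ZEB1 (1.29 ± 0.285) they were the 3 of 12 such factors that rose, against 1.79% of all genes. None fell, and the list median was 0.68. SNAI2 kept its call without any 1 array. TWIST1 and ZEB1 lost theirs without control replicate 2 or either depleted array. The mesenchymal cadherin CDH11 was not called (1.58 ± 0.588, adjusted p = 0.176), nor were CDH1 (−0.49 ± 0.24) and CDH2 (−0.21 ± 0.145). In the mesoderm list SNAI2 and TWIST1 were the 2 of 31 that rose and HAND2 the 1 that fell (−0.84 ± 0.138).

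Protocadherins, a branch of the cadherins best known from neurons, rose in 4 of the 17 cadherins measured, against 1.79% of all genes. No cadherin fell. PCDH8, a protocadherin of paraxial mesoderm, spread widely at 5.65 and 7.51 in depleted cells, against 4.15 and 3.60 in control cells (2.70 ± 0.498, adjusted p = 0.00984). PCDH7 was at 7.13 and 7.35 in depleted cells, against 5.87 and 5.38 in control cells (1.61 ± 0.313). PCDH19 (1.15 ± 0.268) and PCDH17 (1.03 ± 0.261) were the others. Each of the 4 lost its call without control replicate 2, and without 1 or more of the other arrays.

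Other large rises did not share a pathway. PENK, the precursor of enkephalin opioid peptides, was at 6.39 and 7.54 in depleted cells, against 3.56 and 3.32 in control cells, where it lay near background (3.52 ± 0.298, adjusted p = 3.22e-05). MAF, a leucine zipper factor, was at 8.01 and 7.68 in depleted cells, against 5.20 and 5.19 in control cells (6.3-fold, 2.66 ± 0.223, adjusted p = 3.19e-05). HS3ST2, which sulphates heparan chains, rose by 2.48 ± 0.207, and the zinc-binding metallothionein MT1G by 2.36 ± 0.298. PGF, a ligand of the VEGF family, rose by 1.69 ± 0.191 (adjusted p = 0.000363). All 5 kept their calls without any 1 array.

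Some rises were in genes that control cells had lowered by day 3. HEPH, an iron-oxidising membrane protein, was at 6.19 and 6.41 in depleted cells, against 3.76 and 3.46 in control cells, and at 7.78 on average in control cells at day 0 (2.69 ± 0.194, adjusted p = 1.09e-05). BEX5 was at 7.24 and 7.34 in depleted cells, against 4.80 and 4.40 in control cells, and at 6.99 at day 0 (2.69 ± 0.28). The zinc finger gene ZNF558 was at 7.09 and 7.18 in depleted cells, against 4.51 and 4.98 in control cells, and at 6.58 at day 0 (2.39 ± 0.137, adjusted p = 1.52e-06). The protocadherin pseudogene PCDHB17P was at 5.66 on both depleted arrays, against 3.46 and 2.66 in control cells, and at 5.59 at day 0 (2.60 ± 0.287). In these 4 genes the depleted cells at day 3 lay near the control level of day 0, or between it and the control level of day 3. They stayed high in rescue cells, which exceeded control cells at day 5 by 3.99 for HEPH, 2.96 for BEX5, 1.45 for ZNF558 and 3.69 for PCDHB17P, all called.

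The largest fall was in CT83, a cancer-testis antigen. Its level was 1.83 and 2.42 in depleted cells, which is background, against 6.21 and 5.81 in control cells (−3.88 ± 0.214, adjusted p = 1.52e-06). MDGA2, a synaptic adhesion protein that binds neuroligins, was at 4.19 and 4.29 in depleted cells, against 7.49 and 7.78 in control cells (10.5-fold, −3.39 ± 0.218, adjusted p = 5.11e-06). AKAP19 was at 3.95 and 3.75 in depleted cells, against 6.69 and 7.77 in control cells (−3.37 ± 0.335, adjusted p = 0.00016). In all 3 genes the groups were well separated, and the calls held without any 1 array. AKAP19 and CT83 were as low in rescue cells (4.46 and 2.04) as in depleted cells at day 5 (4.35 and 2.43), against 8.23 and 5.43 in control cells, while MDGA2 returned (7.29 in rescue cells, 5.46 in depleted cells and 7.18 in control cells).

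The starts of some of these genes hold the letters that GATA factors bind. The 300 bases from 250 before to 50 after the start were searched on both strands for the motif AGATAA or its variant AGATAG, and for the motif TGATAA or its variant TGATAG. A match was found for 47 of 266 genes that rose (17.7%) and 55 of 286 that fell (19.2%), against 2817 of all 14425 genes with such a sequence (19.5%). The share among called genes was thus near that of all genes, and RELN and RSPO3 held no match in this window. A match is a description of letters and not of a binding site. The windows of HEPH, which rose, and of MDGA2, AKAP19 and APOA2, which fell, are given below with the match in capitals, each 5′ to 3′ on the strand of the gene, from RefSeq on GRCh38.p14. HEPH lies at chrX:66163997-66164296 (plus strand), MDGA2 at chr14:47343197-47343496 (minus strand), AKAP19 at chr2:190137527-190137826 (plus strand) and APOA2 at chr1:161223579-161223878 (minus strand).
HEPH: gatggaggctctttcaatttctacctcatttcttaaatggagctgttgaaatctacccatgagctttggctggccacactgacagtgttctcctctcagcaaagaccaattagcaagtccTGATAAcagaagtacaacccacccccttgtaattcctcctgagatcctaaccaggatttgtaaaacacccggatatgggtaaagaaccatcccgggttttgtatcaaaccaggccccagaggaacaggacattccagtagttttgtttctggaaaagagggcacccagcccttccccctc
MDGA2: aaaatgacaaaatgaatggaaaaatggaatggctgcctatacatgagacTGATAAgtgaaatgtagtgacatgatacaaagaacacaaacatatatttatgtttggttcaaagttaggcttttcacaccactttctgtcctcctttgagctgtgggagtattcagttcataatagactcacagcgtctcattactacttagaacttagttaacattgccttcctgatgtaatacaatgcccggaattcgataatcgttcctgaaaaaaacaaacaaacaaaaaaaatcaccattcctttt
AKAP19: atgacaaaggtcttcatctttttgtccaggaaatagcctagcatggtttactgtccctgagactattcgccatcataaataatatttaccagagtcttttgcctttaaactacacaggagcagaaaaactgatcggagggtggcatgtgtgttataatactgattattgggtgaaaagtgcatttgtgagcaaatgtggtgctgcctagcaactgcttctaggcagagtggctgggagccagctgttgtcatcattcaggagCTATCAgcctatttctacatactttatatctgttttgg
APOA2: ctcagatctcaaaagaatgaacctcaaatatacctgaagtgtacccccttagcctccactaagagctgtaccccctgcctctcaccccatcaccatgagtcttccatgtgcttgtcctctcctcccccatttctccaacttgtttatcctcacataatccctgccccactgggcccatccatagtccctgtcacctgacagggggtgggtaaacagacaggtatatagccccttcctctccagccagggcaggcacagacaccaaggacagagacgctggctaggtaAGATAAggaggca

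CT83 was counted with the pluripotency and early embryo genes, although in control cells it was at background at day 0 (2.19) and higher at day 5 (5.43). Of 25 measured genes of pluripotency and the early embryo 8 fell, against 1.96% of all genes, and none rose. The list median was −0.43. RBM46, an RNA-binding protein of germ cells, was at 3.36 and 3.48 in depleted cells, against 5.65 and 6.68 in control cells (−2.75 ± 0.336, adjusted p = 0.000692). DPPA2, a chromatin protein of early embryos, was at 5.36 and 5.23 in depleted cells, against 7.53 and 6.68 in control cells (−1.80 ± 0.212, adjusted p = 0.000501). The pluripotency factor NANOG fell by 0.83 ± 0.158, the de novo methyltransferase DNMT3B by 0.81 ± 0.133, and DPPA4 by 0.63 ± 0.151. LEFTY1 and GDF3 were the remaining 2. The core factors POU5F1 (−0.43 ± 0.166, adjusted p = 0.197) and SOX2 (0.20 ± 0.23, adjusted p = 0.752) were not called. CT83, RBM46, DPPA2 and GDF3 kept their calls without any 1 array.

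The regulators of definitive endoderm were mostly not distinguishable between the lines at day 3. SOX17 was at 9.69 and 9.71 in depleted cells, against 10.06 and 10.42 in control cells (−0.54 ± 0.189, adjusted p = 0.147). EOMES, a T-box factor upstream of the endoderm programme, was at 12.33 and 12.28 in depleted cells, against 12.38 and 12.42 in control cells (−0.10 ± 0.196). GSC was at 10.11 and 10.03 in depleted cells, against 10.12 and 10.54 in control cells (−0.26 ± 0.295). FOXA2 (−0.36 ± 0.382), GATA4 (−0.50 ± 0.309) and the secreted inhibitor CER1 (−0.10 ± 0.525) were not called either, and the groups overlapped for GATA4 and CER1. The SEs leave room for changes of about 1 log2 in CER1, GATA4 and FOXA2, and of nearly that in SOX17 and GSC.

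HHEX, a homeobox factor of anterior endoderm, was the regulator that was called lower, at 6.85 and 6.69 in depleted cells against 8.03 and 8.64 in control cells (−1.56 ± 0.36, adjusted p = 0.0314). The call ended without control replicate 2 or either depleted array. CXCR4 was at 8.02 and 7.98 in depleted cells, against 8.89 and 10.02 in control cells (−1.46 ± 0.422, adjusted p = 0.082). The primitive streak factor TBXT did not separate the groups, at 7.73 and 7.90 in depleted cells and 8.44 and 7.04 in control cells (0.08 ± 0.374). None of 19 primitive streak and mesendoderm genes was called.

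In the whole list of 28 definitive endoderm factors and markers, with a median of −0.28, none rose. In it 3 fell, against 1.96% of all genes. Beside HHEX these were ERBB4, a receptor tyrosine kinase for neuregulins, and ST8SIA4, which builds polysialic acid. ERBB4 was at 6.49 and 8.10 in depleted cells, against 9.75 and 10.53 in control cells (7.17-fold, −2.84 ± 0.376, adjusted p = 0.00112). ST8SIA4 was at 6.62 and 7.01 in depleted cells, against 8.08 and 8.51 in control cells (−1.48 ± 0.173, adjusted p = 0.000487). Both kept their calls without any 1 array. Of the other growth factor genes of this kind, PDGFA (−0.99 ± 0.165) and ERBB3 (−0.64 ± 0.158) fell.

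Several genes of secreted and basement membrane proteins that endoderm makes were lower at day 3. APOA2, an apolipoprotein, was at 3.70 and 3.58 in depleted cells, against 5.26 and 7.55 in control cells (−2.77 ± 0.568, adjusted p = 0.0172). RNASE1, a secreted ribonuclease, was at 4.61 and 5.04 in depleted cells, against 7.02 and 7.90 in control cells (6.24-fold, −2.64 ± 0.284, adjusted p = 0.000291). With APOC1 (−0.74 ± 0.13) and COL4A1 (−0.63 ± 0.109) they were the 4 of 24 extraembryonic endoderm and serum protein genes that fell, against 1.96% of all genes. In this list SOX7 was the 1 that rose (0.66 ± 0.13). COL4A1, COL4A2 (−0.49 ± 0.124) and the laminin chain LAMA1 (−0.55 ± 0.102), all basement membrane components, fell together with the proteoglycan LUM (−2.80 ± 0.556). They were the 4 of 25 collagens, laminins and proteoglycans that fell, against 1.96% of all genes. In that list RELN and COL6A3 rose, and the median was −0.04. Outside it the laminin chain LAMC3 was called higher (0.85). Among the falls RNASE1 kept its call without any 1 array. APOA2, LUM, APOC1, COL4A1 and LAMA1 lost theirs without control replicate 2, and COL4A2 lost its call without at least 1 of the day 3 arrays.

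Other falls lay in genes of varied kinds, of which the study counts NCR1, SEMA3D and ZFPM2 among its endoderm-enriched genes. NCR1, known as an activating receptor of natural killer cells, was at 4.38 and 4.79 in depleted cells, against 6.54 and 8.75 in control cells (8.31-fold, −3.06 ± 0.515, adjusted p = 0.00557). CCDC152 was at 4.37 and 4.56 in depleted cells, against 7.18 and 7.80 in control cells (−3.03 ± 0.211, adjusted p = 9.83e-06). CCDC152 overlaps the selenium transport gene SELENOP, which moved the other way at day 3 (1.18 ± 0.194) and was lower in depleted cells at day 5 (−2.15 ± 0.194). The glutamate transporter SLC1A2 (−2.58 ± 0.203), the guidance cue SEMA3D (−2.55 ± 0.483), the secretory chaperone SCG5 (−2.32 ± 0.303) and C1orf115 (−2.38 ± 0.28) fell as well. The cofactor ZFPM2, which binds GATA factors, was the 1 of 7 GATA factors and cofactors called, GATA6 aside (−1.25 ± 0.28, adjusted p = 0.027).

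Short lists chosen to report on the state of the cells moved little. None of 24 cell cycle genes was called (median 0.01), none of 17 genes of endoplasmic reticulum and integrated stress (median 0.10) and none of 10 housekeeping genes (median −0.02). These lists do not cover all such genes. Outside them the endoplasmic reticulum genes MANF, DNAJB11 and SELENOS and the chaperones HSPA1B and DNAJA1 were called higher, and the co-chaperone FKBP5 lower. Among 20 genes of p53 and apoptosis 1 rose, the p53 target ZMAT3 (0.77 ± 0.179), and the list median was 0.19. In the list of 16 neuroectoderm genes NES rose (0.78 ± 0.146) and FABP7 fell (−1.21 ± 0.175). No trophoblast or amnion gene of 15 was called. NCR1 and the angiopoietin receptor TEK (−1.24 ± 0.303) were the 2 of 15 blood and endothelium genes that fell, and the membrane protein BST2 (−1.73 ± 0.418) the 1 of 18 interferon response genes. Of 26 genes of neuronal guidance and synaptic adhesion 5 rose, against 1.79% of all genes, namely RELN, SLIT2, TENM2, SLIT3 and EFNA5. In the same list MDGA2 and SEMA3D fell. A list of 15 genes that the study named for day 3 was chosen on these samples and is no independent evidence of direction. Of it 6 fell, among them BHLHE22 (−2.17 ± 0.493) and UPK1B (−1.56 ± 0.354), and 2 rose, TAF9B (1.54 ± 0.201) and TENM2 (1.32 ± 0.231).

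**Figure D2:**
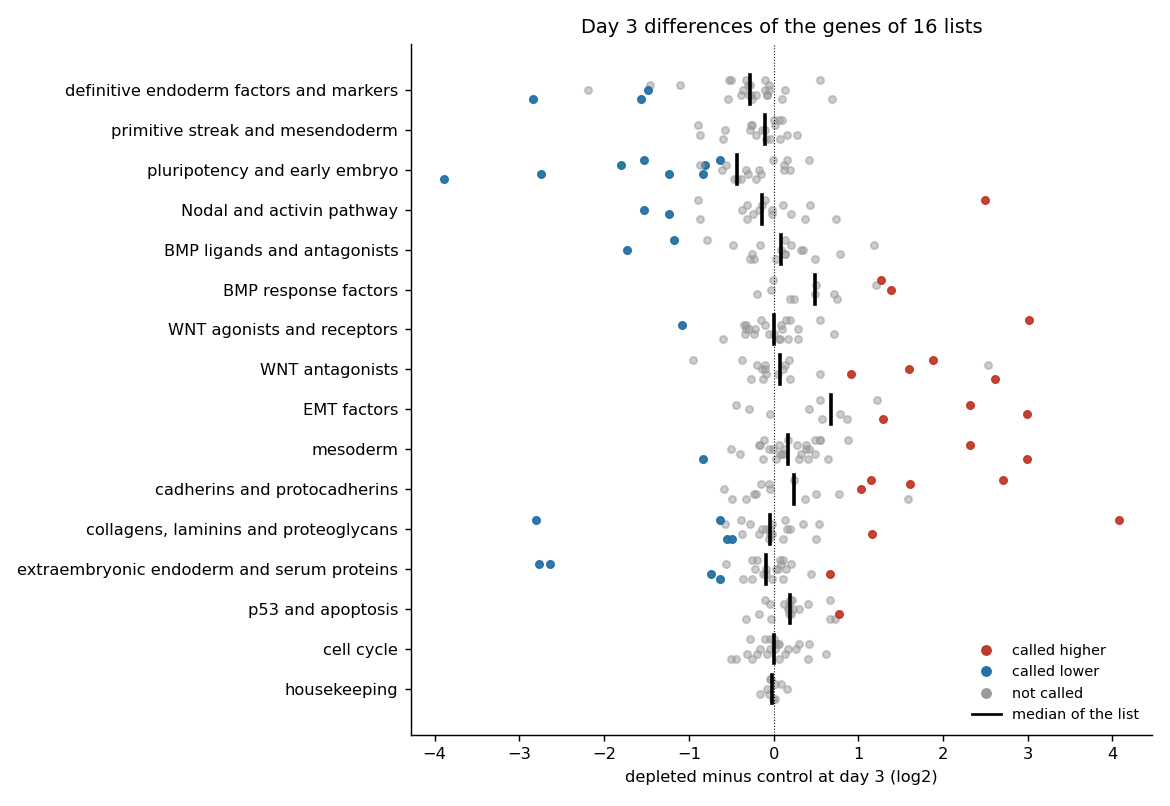
Difference of depleted minus control cells at day 3, in log2, for each measured gene of 16 lists. Red points were called higher, blue points lower and grey points not called, and black bars are list medians. Pluripotency and early embryo genes hold 8 falls and no rise, WNT antagonists 4 rises and no fall, and the cell cycle list no call. Over all genes 1.79% were called higher and 1.96% lower.

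Endoderm-enriched genes were defined on other arrays, as those higher in control cells at day 5 than at day 0 by at least 1 log2. They numbered 1271, or 7.01% of all genes. At day 3, 126 of them were called lower in depleted cells (9.91%, against 1.96% of all genes) and 36 higher (2.83%, against 1.79%). Their median difference was −0.15 at day 3, −1.05 at day 4 and −1.33 at day 5. The day 3 value differed with the control array it was set against. The mean of depleted cells lay at a median of −0.01 from control replicate 1 and −0.31 from control replicate 2, and both control arrays differed from each other by −0.31 (replicate 1 minus replicate 2). Without control replicate 2, 35 endoderm-enriched genes were called lower and 32 higher. Without control replicate 1 the counts were 237 and 25. The excess of falls over rises was thus nearly absent when control replicate 1 alone stood for the control. Control replicate 2 was also the array with the larger ACTB gap, and the part of that gap in the result was not tested. Without any 1 of the 4 arrays, 31 falls and 11 rises kept their calls.

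The counterpart was the 1046 genes (5.77% of all) that control cells lost by at least 1 log2 between days 0 and 5. Of these 73 were called higher in depleted cells at day 3 (6.98%, against 1.79% of all genes) and 33 lower (3.15%, against 1.96%), with a median of 0.06. Without any 1 of the 4 arrays, 29 rises and 7 falls kept their calls. At days 4 and 5 the median was 1.03 and 0.96. HEPH, BEX5, ZNF558, PCDHB17P and MT1G were among the 73.

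Day 3 differences were followed to day 5 on arrays that the day 3 comparison does not share, although the cell lines were the same. The spread of each gene was estimated over all arrays, which favours calls on both days for genes of small spread. Of the 325 rises 156 were called higher at day 5 as well (48.0%, against 16.5% of all genes) and 37 were called lower. Of the 355 falls 220 were called lower at day 5 (62.0%, against 16% of all genes) and 38 higher. The difference between the 2 depletion effects was itself called for 3243 genes, 8.63% of all above 0 and 9.26% below. Among the 325 rises it was below 0 in 123 and above in 33, and among the 355 falls it was above 0 in 96 and below in 76. The genes were chosen for a large day 3 difference, which enters this comparison with its sign turned, so choosing them in itself favours values below 0 among rises and above 0 among falls, and nothing is read from these 4 counts.

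**Figure D3:**
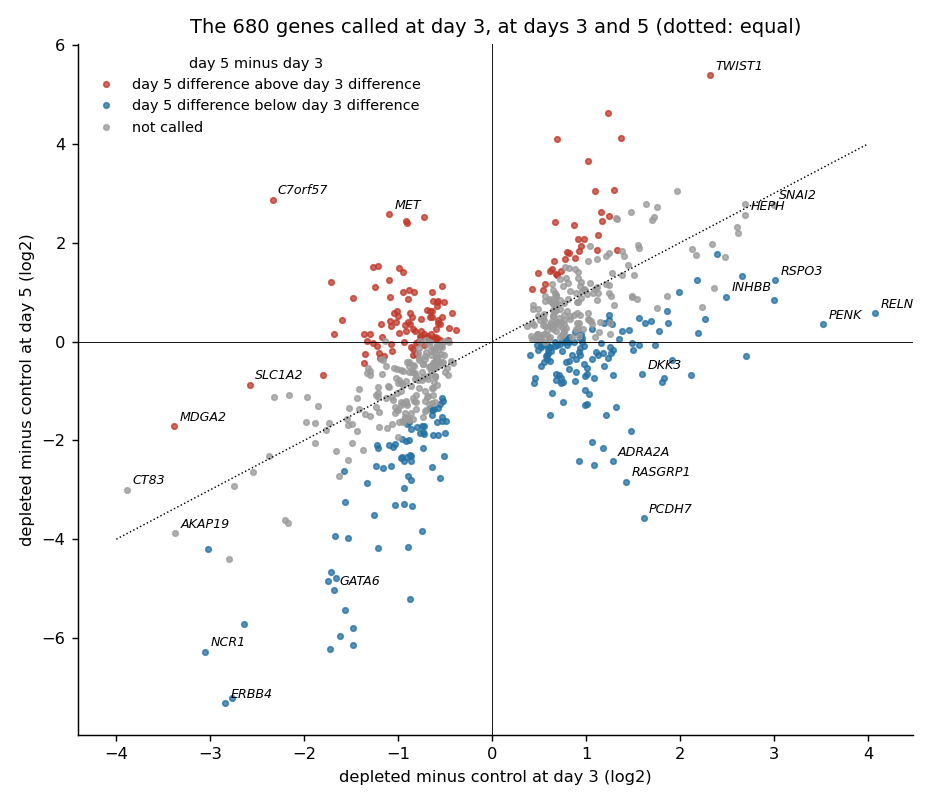
Depleted minus control at day 3 (x axis, log2) and at day 5 (y axis, log2) for the 680 genes called at day 3. Colour gives the call of the difference between both days, and the dotted line marks equal differences. RELN and PENK lie near 0 at day 5, TWIST1 and ERBB4 lie farther from 0 at day 5, and C7orf57 and PCDH7 change sides.

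Of the 15 largest rises RELN, PENK, ITGA8 and PCDH8 were not called at day 5, and the other 11 were called higher. RELN differed by 0.21 at day 4 and 0.58 at day 5, neither of them called, and its effect fell by 3.50 ± 0.329 between days 3 and 5 (adjusted p = 2.63e-05). PENK differed by 0.30 at day 4 and 0.35 at day 5, and ITGA8 by 0.94 and 0.83, again uncalled. The WNT antagonists DKK3 and SOSTDC1 were no longer called at days 4 and 5. DKK1 differed by 0.51 at day 4 (not called) and by 2.19 at day 5 (called).

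Other differences were carried on or grew. SNAI2 stayed at 2.92 at day 4 and 2.77 at day 5. TWIST1 differed by 4.76 at day 4 and 5.39 at day 5, which exceeded its day 3 difference by 3.07 ± 0.698 (adjusted p = 0.00871). ERBB4 differed by −8.54 at day 4 and −7.32 at day 5, and CXCR4, uncalled at day 3, by −5.46 and −6.11. SOX17 was −7.55 at day 4 and −4.15 at day 5, and its effect at day 5 was lower than at day 3 by 3.61 ± 0.267 (adjusted p = 5.8e-06). HHEX, EOMES, GSC, FOXA2, GATA4 and CER1 were all called lower at days 4 and 5, and for each of these 6 the effect at day 5 lay below that at day 3 with the difference called.

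The 37 rises and 38 falls that were called in the opposite direction at day 5 held named examples of both kinds. For all 75 the difference between the days was called. Choosing opposite calls makes this nearly certain, so nothing is read from it. PCDH7 was 1.61 higher in depleted cells at day 3 and 3.58 lower at day 5. ADRA2A, an adrenergic receptor, was at 5.02 and 5.07 in depleted cells at day 3, against 3.69 and 3.83 in control cells (1.28 ± 0.166), and was 2.42 lower at day 5. RASGRP1, an exchange factor for RAS, differed by 1.43 at day 3 and −2.84 at day 5, and the splicing regulator MBNL2 by 1.09 and −2.51. In the other direction C7orf57 was at 2.73 and 2.74 in depleted cells at day 3, which is background, against 4.82 and 5.32 in control cells (−2.34 ± 0.259), and was 2.87 higher in depleted cells at day 5. The receptor kinase MET (−1.10 at day 3 and 2.58 at day 5), the growth cone protein GAP43 (−0.92 and 2.43), the uridine phosphorylase UPP1 (−0.90 and 2.39) and SCGB3A2 (−0.72 and 2.52) followed the same course. POU5F1 and NANOG, both of which lay lower in depleted cells at day 3 (−0.43, uncalled, and −0.83, called), were 1.83 and 1.01 higher at day 5, both called.

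Some day 3 genes differed between rescue and depleted cells at day 5. Over all genes 21.9% were called higher and 17.6% lower in rescue than in depleted cells, and 13.8% higher and 9.57% lower in rescue than in control cells. Of the 325 rises 113 were called lower and 84 higher in rescue than in depleted cells, and of the 355 falls 174 were called higher and 68 lower. Among the 156 genes higher at both days 92 were lower in rescue than in depleted cells, and among the 220 lower at both days 155 were higher, but these were chosen on the same day 5 depleted arrays, which favours a return. SNAI2, TWIST1, RSPO3, INHBB and MAF moved back in this way, as did ERBB4, RNASE1, CCDC152, NCR1 and LUM. A further 51 rises and 55 falls differed from control cells in rescue cells in the day 3 direction with no called return. CT83, AKAP19, BEX5 and ZNF558 were among them, and HEPH and PCDHB17P were higher still in rescue than in depleted cells. RELN was raised again by rescue, to 7.21 in rescue cells, against 4.91 in depleted and 4.33 in control cells. The GATA6 probe set read 8.37 in rescue cells, against 6.49 in depleted and 11.53 in control cells. Whether it detects the rescue cDNA is not known, so these values may not give the total GATA6 mRNA of rescue cells. The study reports overexpression of GATA6 in the rescue line under doxycycline, from a cDNA that is not sensitive to the hairpin. Rescue cells were made from GATA6-depleted cells. For genes that did not return, an effect of GATA6 cannot be told apart from a difference of both lines from the control line.

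**Figure D4:**
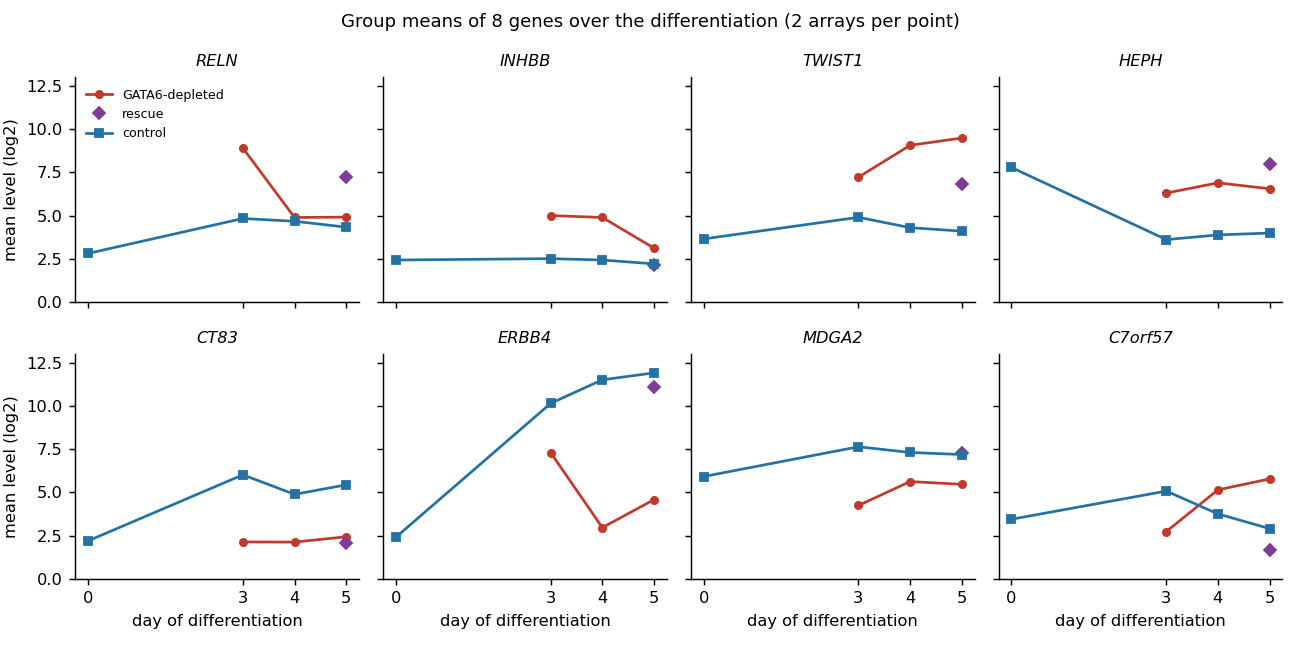
Mean log2 RMA level (y axis) by day of differentiation (x axis) in depleted, rescue (day 5) and control cells for 8 genes, each mean over 2 arrays. RELN stands out at day 3 and in rescue cells, TWIST1 and ERBB4 separate further by day 5, HEPH and CT83 stay on the depleted side of control in rescue cells, and C7orf57 changes sides.

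Some rises lay next to each other on the chromosomes. In the order of genes on GRCh38.p14, and with genes of a mean level of at least 6 log2, 3 runs of neighbours rose together. Their bounds were set after the values were seen, so they are a description with no test. A run on chromosome 9 from PABIR1 to CEP78 held 20 genes, of which 13 were called higher and none lower, with a median of 0.84. The 15 genes before it and after it had medians of −0.02 and 0.02. C9orf85 in this run was at 7.40 and 7.57 in depleted cells, against 6.16 and 6.46 in control cells (1.17 ± 0.133, adjusted p = 0.000377).

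A second run on chromosome 9, from DYNC2I2 to DOLPP1, held 11 genes with 7 called higher and a median of 0.74. Its chloride channel gene LRRC8A was at 11.06 and 10.94 in depleted cells, against 9.60 and 9.73 in control cells (1.33 ± 0.11, adjusted p = 2.85e-05). The run on chromosome 7 from POM121 to GTF2IRD1, which overlaps the region deleted in Williams syndrome, held 11 genes with 9 called higher and a median of 0.79. There TBL2 was at 8.04 and 7.90 in depleted cells, against 6.76 and 6.82 in control cells (1.18 ± 0.149, adjusted p = 0.00086). BUD23, a ribosomal RNA methyltransferase, was at 8.69 and 8.65 in depleted cells, against 7.62 and 7.64 in control cells (1.04 ± 0.116). The 3 runs together held 29 of the 325 rises and none of the falls.

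The medians of the runs were similar at each day, while single genes were not. The medians of the runs were 0.82, 0.79 and 0.84 at day 4 and 0.93, 0.86 and 0.92 at day 5. Among single genes TBL2 differed by 1.18 at day 3, 0.10 at day 4 and −0.23 at day 5, GCNT1 by 0.92, −1.24 and −2.42, and ANXA1, a membrane-binding protein, by 1.17, 5.49 and 5.82. Over all genes 14.8% were called higher and 13.3% lower at day 4, and 16.5% and 16% at day 5. In the run from PABIR1 to CEP78, 13 genes were called higher and 2 lower at day 4. At day 5 these counts were 15 and 1. In that from DYNC2I2 to DOLPP1, 8 were called higher at day 4 and 7 at day 5, and none lower. In that from POM121 to GTF2IRD1, 8 were called higher on each day, none lower at day 4 and 2 lower at day 5. Rescue cells at day 5 exceeded control cells by medians of 0.79, 0.90 and 0.98, with 13, 10 and 10 genes called higher. Among windows of 15 neighbouring genes the 7682 that touched no run had medians of −0.33 to 0.57, and the highest median of the 84 that touched one was 0.87. Rescue minus depleted medians at day 5 were −0.60, 0.15 and 0.19, and in the run from PABIR1 to CEP78 11 of 20 genes were called lower and 4 higher in rescue than in depleted cells. The rescue line was made from GATA6-depleted cells and carries the same hairpin vector, so the 2 lines are not separate observations. Each was 1 polyclonal line. A change of these regions in a line and an effect of the hairpin or of GATA6 cannot be told apart by this design.

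**Figure D5:**
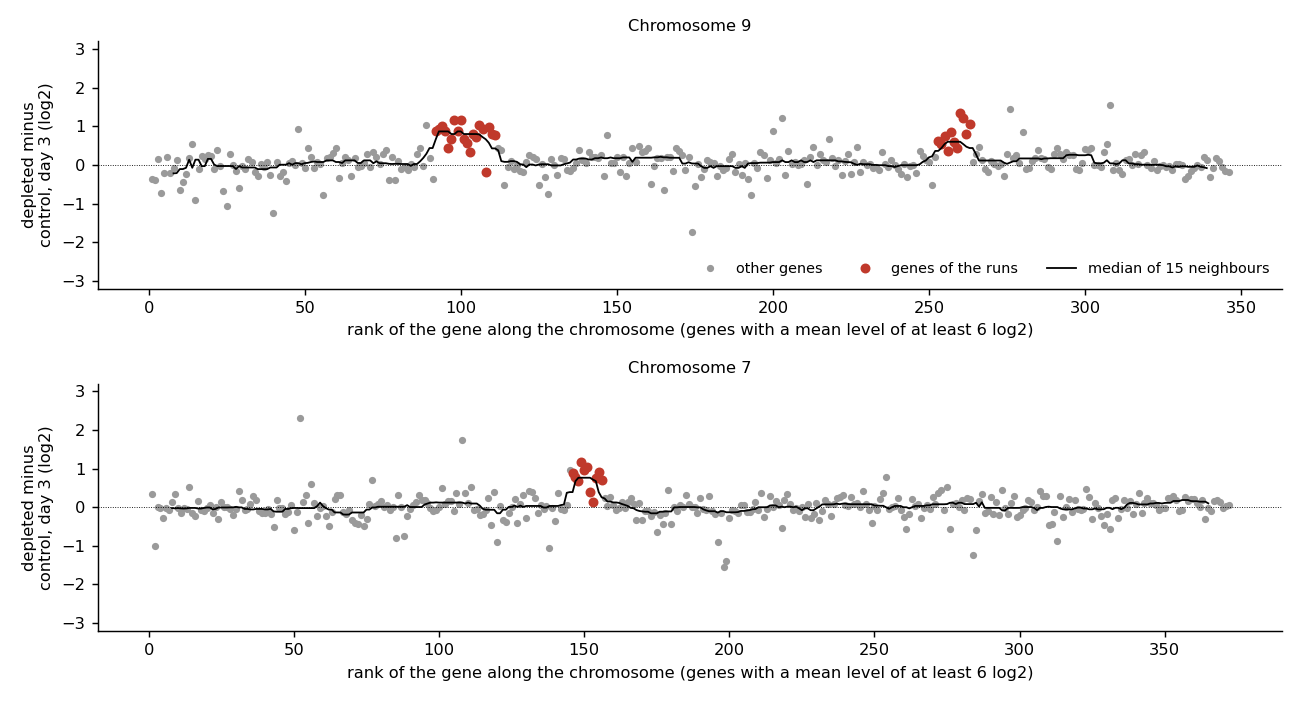
Difference of depleted minus control cells at day 3 (y axis, log2) by the rank of each gene along chromosomes 9 and 7 (x axis), for genes with a mean level of at least 6 log2. Genes of the 3 runs are red, and the line is the median of 15 neighbours. The runs stand at medians of 0.84, 0.74 and 0.79 while the genes beside them lie near 0.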

How the data were processed

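RNA of 16 samples was labelled with the 3′ IVT Express protocol and hybridised to PrimeView arrays. The deposited values are log2 levels after RMA, made by the authors with Partek (version not given in the sources used here) and used as deposited. Of 49395 probe sets, 102 controls and those naming no gene or several were left out, and a gene took its probe set with the highest mean, which gave 18132 genes. Names were matched to RefSeq (GRCh38.p14).

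A group-means model over all 16 arrays (8 groups of 2) was fitted in limma (version 3.58.1, R 4.3.3). Variances were moderated, with two-sided tests and Benjamini-Hochberg adjustment over all genes at 0.05. Day 3 has 2 arrays per group, described as independent differentiations, and the median SE was 0.152 log2. Precision is limited by how few arrays there were. The fit was tested on simulated data. The genes and lists were chosen with earlier results of these data known. Named genes were the target, the 15 largest rises and falls, and the called or largest members of the lists. Alternatives changed scaling, filter, probe set, moderation, samples and replicate block.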

Additional observations from a re-analysis of the deposited data

Results flagged for a closer look

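For 3243 genes the effect of depletion (depleted minus control) differed between days 5 and 3 in a test of the difference itself, and 63 of the 95 named genes were among them, 45 below 0 and 18 above. Values are the day 5 effect minus the day 3 effect in log2.

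Among endoderm regulators and markers the effect was lower at day 5 for GATA6 (−3.346), SOX17 (−3.611), FOXA2 (−2.054), GATA4 (−2.848), HHEX (−3.862), GSC (−4.102), EOMES (−2.182), CER1 (−2.949), CXCR4 (−4.651), FGF17 (−3.902), ERBB4 (−4.48), ST8SIA4 (−4.665) and the GATA cofactor ZFPM2 (−2.264). Other genes lower at day 3 had a lower effect at day 5 as well, with APOA2 at −4.444, APOC1 at −1.422, RNASE1 at −3.068, COL4A1 at −1.261, LAMA1 at −2.202, BST2 at −4.5, NCR1 at −3.221, UPK1B at −1.674, CCDC152 at −1.16 and the WNT receptor FZD5 at −1.444.

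Genes that were raised at day 3 and less so, or lowered, at day 5 were RELN (−3.499), PENK (−3.177), RSPO3 (−1.766), ITGA8 (−2.171), PCDH8 (−3.005), MAF (−1.337), INHBB (−1.584), ZNF558 (−0.63), SOSTDC1 (−1.498), DKK3 (−2.264), PGF (−1.271), PCDH7 (−5.186), PCDH17 (−2.099), ZEB1 (−1.958), COL6A3 (−1.186), TENM2 (−2.648), RASGRP1 (−4.267), ADRA2A (−3.706), MBNL2 (−3.593) and GCNT1 (−3.34). GDF3, lower at day 3, was lower still (−1.274), and the chaperone HSPA5, called on neither day, differed by −0.848.

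The effect was higher at day 5 for the pluripotency genes POU5F1 (2.257) and DPPA2 (1.123), the streak factor TBXT (3.355) and the mesoderm genes TWIST1 (3.068) and HAND2 (1.089). It was also higher for the ligands BMP7 (1.272), FGF19 (1.629) and PDGFA (2.49), the receptors ERBB3 (1.644) and MET (3.671), and NES (0.883), TFAP2C (1.638), MDGA2 (1.675), SLC1A2 (1.707), C7orf57 (5.212), GAP43 (3.347), UPP1 (3.294) and SCGB3A2 (3.244). No explanation of these differences was tested.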

How the results depend on the processing

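All 680 genes called at day 3 kept their direction without any 1 of the 4 day 3 arrays. This was fixed in advance, since in none of them did the groups overlap. Over all arrays left out singly, the count ran from 254 to 943, rises from 132 to 391 and falls from 104 to 582. Endoderm-enriched falls ran from 35 to 237 and rises from 13 to 48, genes with a called difference between the day 5 and day 3 effects from 2380 to 3600, and GATA6 from −1.772 to −1.605. A model of both day 3 groups alone called 161 genes, 91 higher and 70 lower, of them 36 endoderm-enriched falls and 19 rises. The thresholds of the study's methods gave 355 genes, 194 higher and 162 lower, 1 of them both. Averaged probe sets (731), a filter on low genes (698), loess scaling (712), trended moderation (789), a model without day 0 and rescue arrays (547) and averaged rescue arrays (470) stayed within 1.5 times the main count. Among named genes TBXT ran from −0.622 to 0.777 and FGF17 from −0.936 to 0.42 without single arrays, and neither was called.

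The replicate numbers did not pair the samples, since the correlation of deviations ran from −0.068 to 0.253 over 28 pairs of groups and was over 0.1 in 4 of them. With the replicate number as a block 716 genes were called, 332 higher and 384 lower, with 134 endoderm-enriched falls and 40 rises, 3306 called differences between days, and an adjusted p of 0.00692 for GATA6.

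With 2 arrays per group small changes often go uncalled, and levels near background understate folds. Each genotype was 1 polyclonal line, the control had no hairpin, and no depleted day 0 array was used.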

Other observations

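Both gene families below were picked after their values were seen and carry no test as families. In the protocadherin beta cluster, neural adhesion genes side by side on chromosome 5, 9 of 18 measured genes were called higher in depleted cells at day 3 and none lower, against 1.79% and 1.96% of all genes, with a median of 0.70. PCDHB16 was at 6.14 and 5.94 in depleted cells, against 3.75 and 3.97 in control cells (2.18 ± 0.154, adjusted p = 9.83e-06 in limma). At day 5, 2 of the 18 were called higher in depleted than in control cells, against 16.5% of all genes, and 16 were called higher in rescue than in control cells, against 13.8% of all genes, with a median of 1.37. Probes may not tell near-identical members apart.

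Of 11 metallothioneins, which bind zinc and copper, 6 were called higher at day 3, against 1.79% of all genes, with a median of 1.47. MT2A was at 11.98 and 11.39 in depleted cells, against 9.93 and 10.50 in control cells, and MT1M differed by 2.23 ± 0.373. At day 5, 5 were called higher in depleted than in control cells, against 16.5% of all genes, and 9 were called lower in rescue than in depleted cells, against 17.6% of all genes.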
